A study of Mus musculus with 9 samples.

Results

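The genes described here are the subunits of the hypoxia-inducible factor (HIF), the enzymes that mark its alpha subunits for removal, and a set of genes that HIF is known to switch on. The 10 genes were chosen by gene name, and all 10 are among the 54532 genes listed in the data: the factor subunits Hif1a, Epas1 and Arnt, the prolyl hydroxylases Egln1 and Egln3, and the targets Car9, Vegfa, Ankrd37, Adm and Ndrg1. Gene expression was measured by RNA sequencing in 9 libraries made from B.END3 cells, a line labelled as mouse endothelial cells of the nervous system, which the growth protocol and the paper's methods call rat cells and whose reads were assigned to mouse genes. The cells had undergone photodynamic therapy (PDT), in which a light-absorbing drug, the photosensitizer, is activated by a laser and produces reactive oxygen species. The study asked how this intervention changes the transcriptome of such cells. Ctrl cells (3 libraries) carry only the label untreated. Ep1 cells (3 libraries) and Ep2 cells (3 libraries) received 300 µg/mL of the photosensitizer porfimer sodium for 90 min and then light of 635 nm at 100 mW/cm2, to a light dose of 10 J/cm2 in Ep1 and 20 J/cm2 in Ep2. Ep1 and Ep2 therefore differed from Ctrl in both drug and light, whose shares cannot be told apart, and from each other in the light dose. All samples are of 1 cell line. The time between irradiation and collection is not given in the sources used here.

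HIF is a pair of proteins, an oxygen-regulated alpha subunit (HIF-1α from Hif1a, HIF-2α from Epas1) and the stable partner ARNT. In well-oxygenated cells prolyl hydroxylases of the EGLN family, which need oxygen and iron, tag the alpha subunit for the VHL ubiquitin ligase and the proteasome, so the factor is controlled largely through the stability of its protein, which RNA sequencing does not measure. When the hydroxylases slow down, the pair binds a short core motif near its target genes, among them genes of angiogenesis, acid-base balance and glycolysis and the hydroxylase genes Egln1 and Egln3 themselves, and in brain endothelium the pathway is best known for its part in vessel growth and barrier function under low oxygen.

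At the higher light dose, 7 of the 9 HIF genes that could be tested rose against Ctrl (4 to 8 on leaving out 1 library). The largest rises were those of the targets Ndrg1 (2.51 times its mean in Ctrl) and Car9 (2.4 times). Egln3, Vegfa and Egln1 were between 1.56 and 1.65 times, and the factor genes Hif1a and Arnt at 1.23 and 1.16 times. Ep2 replicate 1 was 1.78 times the mean of the other Ep2 libraries for Egln3 and 1.57 times for Vegfa. The call of Egln3 was lost without any 1 Ctrl library, and that of Vegfa without Ctrl replicate 1. At the lower light dose none of the 9 passed the test, although Hif1a was at the same 1.23 times its mean in Ctrl there. In limma fits of only the groups compared, Hif1a passed in Ep1 (adjusted p = 0.00767) and missed the threshold in Ep2 (0.0908). The call of Hif1a at the higher light dose is borderline, and no difference between the doses was detected for this gene. Of all 11727 genes tested, 23.9% rose in Ep2 against Ctrl, while in Ep1 6.32% rose and 4.97% fell. Adm was at or near 0 in every library and was not tested, and Ankrd37 was high in 1 Ep2 library alone.

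The values are FPKM, the fragments on a gene scaled to its length in kilobases and to the size of the library, so levels can be compared between genes. The libraries held 16240688 to 19509225 fragments on listed genes. Replicates of a group differed by more than counting noise in all 9 pairs, and most between Ep2 replicate 1 and the other Ep2 libraries (chi-square per degree of freedom of 10.1 and 15.2, against 2.81 to 5.66 in the other pairs). Nothing in the labels says that replicates were separate cultures, so a p-value measures only the spread between these libraries, which may be technical. The label of the cells was checked on 12 endothelial marker genes. Of these, 2 passed the filter on low values (Flt1, at 6.66 to 11.7 FPKM, and Eng, at 1.02 to 1.46 FPKM), Cdh5 lay between 0.524 and 1.09 FPKM, Pecam1 between 0.0821 and 0.242 FPKM and Kdr between 0.0239 and 0.0594 FPKM, and Erg and Emcn were at 0 in all libraries. The other 5 lay at 0.208 FPKM or less. Of 6 epithelial markers, the keratin genes Krt8 (562 to 714 FPKM), Krt18 (231 to 332 FPKM) and Krt19 (135 to 324 FPKM) were high in the same libraries, while Epcam lay between 0.607 and 2.03 FPKM, Cdh1 between 0.0118 and 0.103 FPKM and Krt7 at 0. Most defining endothelial markers were thus at or near 0, which goes against the label, and the epithelial markers were split. The cells are called B.END3 cells as labelled.

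HIF recognises the core A or G followed by CGTG, so the letters ACGTG and GCGTG were searched on both strands in the 250 bases before the start of each gene, in the promoter sequences of RefSeq for GRCm38.p6. Of the 10 genes, 8 had a sequence, Vegfa with 2 alternative starts, and Epas1 and Ndrg1 had none in the table used. At least 1 match was present in 8 of these 9 windows, against 38.6% of all 32851 windows of the same length, and ACGTG in 6 of the 9 against 16.6%. The 9 windows include no gene chosen for its promoter, but HIF targets are known partly through this motif, and a match is a description of letters, not a site of binding. The windows of Egln1, Egln3, Car9, Vegfa and Ankrd37 are shown because these genes are HIF targets with quite different responses below, and capitals mark the matches, read on the strand of the gene (CACGT and CACGC are the same motifs on the other strand).
Egln1, chr8:124949255-124949504, minus strand: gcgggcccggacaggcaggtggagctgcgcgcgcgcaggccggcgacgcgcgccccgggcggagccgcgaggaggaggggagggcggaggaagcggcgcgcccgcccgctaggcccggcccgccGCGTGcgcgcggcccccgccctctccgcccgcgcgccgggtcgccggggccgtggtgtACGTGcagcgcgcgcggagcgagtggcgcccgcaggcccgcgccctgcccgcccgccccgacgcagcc
Egln3, chr12:54203875-54204124, minus strand: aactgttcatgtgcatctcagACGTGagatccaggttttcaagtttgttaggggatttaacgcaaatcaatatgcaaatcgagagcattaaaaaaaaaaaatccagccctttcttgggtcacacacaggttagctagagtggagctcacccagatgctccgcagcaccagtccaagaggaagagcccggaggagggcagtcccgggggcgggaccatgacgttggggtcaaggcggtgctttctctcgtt
Car9, chr4:43506776-43507025, plus strand: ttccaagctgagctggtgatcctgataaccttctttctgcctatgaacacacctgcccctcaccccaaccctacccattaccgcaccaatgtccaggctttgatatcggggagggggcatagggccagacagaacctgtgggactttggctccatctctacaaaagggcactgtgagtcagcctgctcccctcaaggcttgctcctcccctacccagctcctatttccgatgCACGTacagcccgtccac
Vegfa, chr17:46032378-46032627, minus strand: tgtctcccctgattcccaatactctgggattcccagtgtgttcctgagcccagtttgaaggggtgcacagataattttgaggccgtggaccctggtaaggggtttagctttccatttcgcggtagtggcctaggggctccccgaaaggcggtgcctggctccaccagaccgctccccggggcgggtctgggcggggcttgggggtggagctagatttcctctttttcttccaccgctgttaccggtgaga
Ankrd37, chr8:45999851-46000100, minus strand: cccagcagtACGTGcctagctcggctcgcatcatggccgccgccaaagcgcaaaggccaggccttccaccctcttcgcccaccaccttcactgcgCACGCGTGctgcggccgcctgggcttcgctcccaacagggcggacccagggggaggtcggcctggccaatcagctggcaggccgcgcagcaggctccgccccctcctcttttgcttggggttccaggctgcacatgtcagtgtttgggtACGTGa
Car9 held 1 ACGTG on its other strand, 18 to 14 bases before the start. Egln1 held ACGTG at 68 to 64 bases and GCGTG at 126 to 122 bases before the start, and Egln3 held ACGTG farther away, at 229 to 225 bases. Ankrd37 had the most matches, with ACGTG at 241 to 237 and at 6 to 2 bases and a pair of overlapping GCGTG matches on opposite strands between 155 and 148 bases before the start. Vegfa had none in this window, which says only that the letters are not in these 250 bases, while the window of its second start (chr17:46025164-46025413, within the listed gene) had 1 of each motif. In Hif1a, matches on both strands formed CACGTG, the E-box of other factors, which 6.02% of all windows contain. The windows follow the RefSeq starts, and the window of Ankrd37 lies within the longer gene that the data list (chr8:45996902-46005707), as does that of Hif1a (chr12:73907617-73907866, within chr12:73901375-73947530) and as do parts of those of Car9 and Egln1.

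In Ctrl the levels ran from Vegfa at 46.7 FPKM through Egln3 (26.7), Hif1a (25.4), Ndrg1 (15.6), Egln1 (13.8), Arnt (9.79), Epas1 (3.31), Ankrd37 (2.31) and Car9 (1.83) down to Adm (0.0107 FPKM). The ranges of neighbours in this order did not overlap among the 3 Ctrl libraries. Vegfa was higher than 89.8% of all tested genes and Car9 higher than 14.7%. In Ep2 the order began with Vegfa (73.2 FPKM), Egln3 (44) and Ndrg1 (39.2). The range of Egln3 overlapped that of Vegfa and that of Ndrg1, while those of Vegfa and Ndrg1 did not overlap. Ndrg1 had moved above Hif1a (31.3 FPKM), the ranges of these 2 genes overlapping as well. Car9, at 4.39 FPKM in Ep2, stood above Epas1, at 4.01 FPKM, in the mean, with overlapping ranges (4.18 to 4.76 and 3.51 to 4.41 FPKM).

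**Figure D1:**
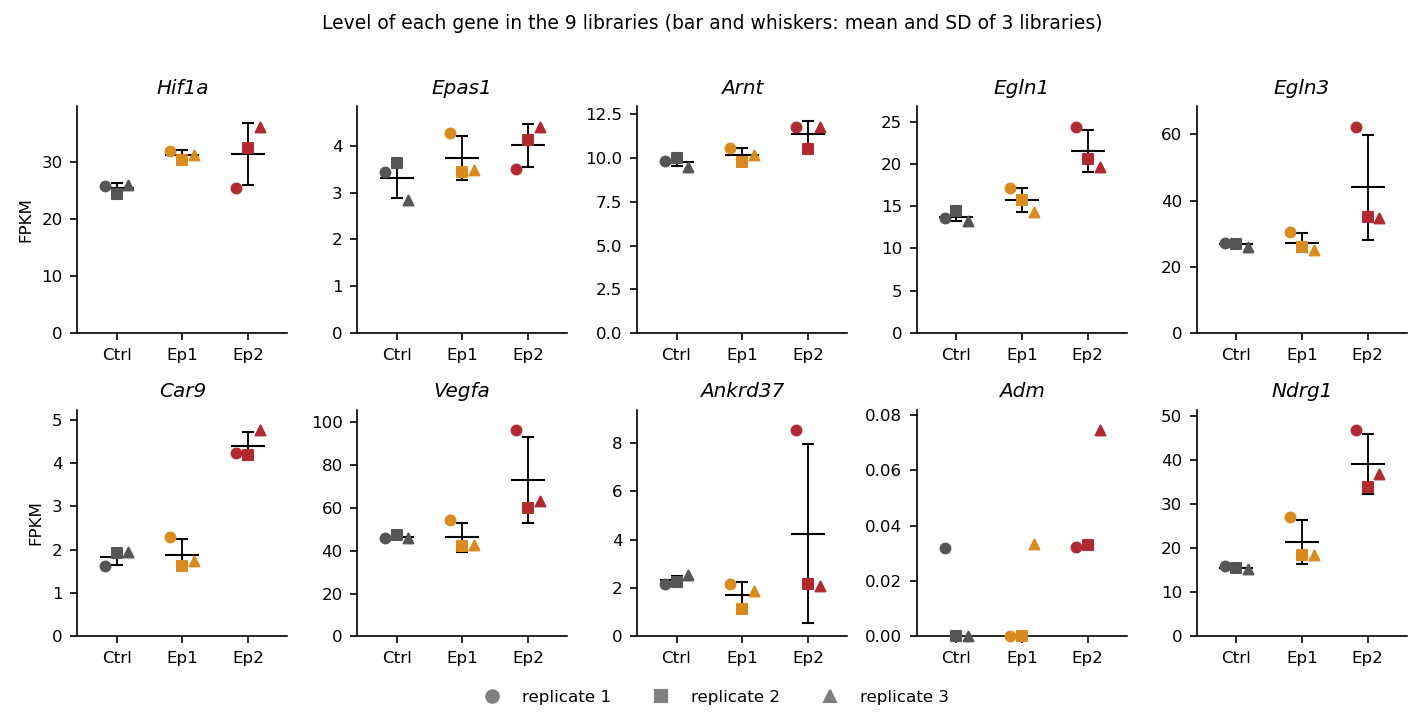
FPKM of each of the 10 genes (vertical axes, each starting at 0) in the 9 libraries, with a point for each library, shaped by replicate number, and a bar and whiskers for the mean and SD of the 3 libraries of a group (not drawn for Adm). The Ep2 libraries of Egln1, Egln3, Car9, Vegfa and Ndrg1 lie above all Ctrl and Ep1 libraries, Ankrd37 is high only in Ep2 replicate 1 (8.52 FPKM), and Adm stays at 0.0744 FPKM or less.

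Among the factor genes, Hif1a, which encodes the main oxygen-regulated subunit, was at 25.8, 24.4 and 25.9 FPKM in Ctrl replicates 1, 2 and 3, at 31.9, 30.2 and 31.2 FPKM in Ep1 and at 25.4, 32.3 and 36.1 FPKM in Ep2. All Ep1 libraries were above all Ctrl libraries, while Ep2 replicate 1 lay inside the Ctrl range and the other Ep2 libraries above it. On the log2(FPKM + 1) scale used for all tests, the Ep2 value was 0.28 above Ctrl (SE 0.10, 95% interval 0.04 to 0.51, adjusted p = 0.0475) and the Ep1 value 0.29 above Ctrl (0.05 to 0.52, adjusted p = 0.106), with no difference detected between Ep2 and Ep1 (-0.01, interval -0.24 to 0.23, adjusted p = 0.962). The Ep2 call is borderline. It was kept, with a larger difference, without Ep2 replicate 1 (0.42, adjusted p = 0.00029), and it was lost on leaving out any other library, with adjusted p-values of 0.0879, 0.127 and 0.0811 without Ctrl replicates 1, 2 and 3, 0.065, 0.0641 and 0.0667 without Ep1 replicates 1, 2 and 3, and 0.127 and 0.136 without Ep2 replicates 2 and 3. The Ep1 difference passed without Ep2 replicate 1 and without Ep2 replicate 3 (lowest adjusted p = 0.00783). It also passed with only the groups compared (adjusted p = 0.00767), where the Ep2 difference missed the threshold (0.0908).

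Epas1, which encodes the alpha subunit most typical of endothelium, was at 3.45, 3.63 and 2.84 FPKM in Ctrl, at 4.28, 3.44 and 3.49 FPKM in Ep1 and at 3.51, 4.12 and 4.41 FPKM in Ep2. Ep2 replicate 1 was again the lowest Ep2 library and overlapped Ctrl. The difference of Ep2 from Ctrl was 0.22 (interval -0.01 to 0.45, adjusted p = 0.097), and it passed without Ep2 replicate 1 (0.29, adjusted p = 0.0371). Ep1 was 0.14 above Ctrl (interval -0.09 to 0.37, adjusted p = 0.403). Arnt, the constitutive partner, was at 9.85, 10 and 9.51 FPKM in Ctrl, at 10.6, 9.81 and 10.2 FPKM in Ep1 and at 11.8, 10.5 and 11.8 FPKM in Ep2. It was the steadiest of the factor genes, and all Ep2 libraries were above all Ctrl libraries. Arnt rose by 0.20 in Ep2 (SE 0.055, adjusted p = 0.0127), a call kept without any 1 of the 9 libraries, and was 0.05 above Ctrl in Ep1 (adjusted p = 0.567).

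Of the hydroxylases, Egln1, which encodes PHD2, the main oxygen sensor of the pathway, was at 13.6, 14.4 and 13.3 FPKM in Ctrl, at 17.2, 15.7 and 14.3 FPKM in Ep1 and at 24.4, 20.6 and 19.6 FPKM in Ep2. No Ep2 library overlapped Ctrl or Ep1, and Ep1 replicate 3 lay within the Ctrl range. The mean rose from 13.8 ± 0.556 (SD, n = 3) in Ctrl to 21.5 ± 2.52 FPKM (n = 3) in Ep2, a log2 difference of 0.60 (SE 0.086, interval 0.41 to 0.80, adjusted p = 0.00034). Ep2 also exceeded Ep1, by 0.43 (adjusted p = 0.00334), and Ep1 was 0.18 above Ctrl (interval -0.02 to 0.37, adjusted p = 0.207). Both calls of Egln1 were kept without any 1 library.

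Egln3, which encodes PHD3, the hydroxylase most readily induced by HIF, was at 27.2, 27 and 26 FPKM in Ctrl, at 30.6, 26 and 25.2 FPKM in Ep1 and at 62.3, 35.1 and 34.7 FPKM in Ep2. All Ep2 libraries were above the rest, but Ep2 replicate 1 was 1.78 times the mean of the other Ep2 libraries, which were close to each other. The rise against Ctrl was 0.65 (SE 0.21, interval 0.17 to 1.13, adjusted p = 0.0304), and without Ep2 replicate 1 it was smaller and tighter, at 0.37 (adjusted p = 0.00285). The call was lost without each Ctrl library in turn (adjusted p = 0.0646, 0.0678 and 0.0658 without replicates 1, 2 and 3). Ep2 exceeded Ep1 by 0.62 (adjusted p = 0.0418), a call that was lost without any 1 Ctrl library (0.0586, 0.0597 and 0.0521 for replicates 1, 2 and 3) or Ep1 library (0.0525, 0.109 and 0.114), and Ep1 was 0.02 above Ctrl (interval -0.46 to 0.50, adjusted p = 0.953).

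Of the targets, Car9 encodes carbonic anhydrase 9, a membrane enzyme that exports acid and is a standard marker of HIF-1 activity. It was at 1.62, 1.93 and 1.94 FPKM in Ctrl, at 2.3, 1.63 and 1.73 FPKM in Ep1 and at 4.24, 4.18 and 4.76 FPKM in Ep2. The 3 Ep2 libraries were even and all were well above every other library, although the gene is low, with 63 to 98 fragments in the Ctrl and Ep1 libraries and 180 to 186 in the Ep2 libraries. Car9 rose by 0.93 in Ep2 against Ctrl (SE 0.096, interval 0.71 to 1.15, adjusted p = 5.48e-05) and by 0.91 against Ep1 (adjusted p = 0.0001), and Ep1 was within 0.02 of Ctrl (interval -0.19 to 0.24, adjusted p = 0.897). Without Ep2 replicate 1 the difference of Car9 from Ctrl was 0.95.

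Ndrg1, a stress and hypoxia response gene whose product takes part in cell growth and trafficking, was at 15.9, 15.6 and 15.3 FPKM in Ctrl, at 27.1, 18.4 and 18.5 FPKM in Ep1 and at 46.8, 33.9 and 36.8 FPKM in Ep2. The 3 groups did not overlap, and their order followed the light dose. Ndrg1 had the largest rise of the 9 tested genes in Ep2, from 15.6 ± 0.315 (SD, n = 3) to 39.2 ± 6.76 FPKM (n = 3), a log2 difference of 1.26 (SE 0.16, interval 0.90 to 1.63, adjusted p = 0.000291) that was 1.13 without Ep2 replicate 1. Ep2 exceeded Ep1 by 0.86 (adjusted p = 0.00307). In Ep1 it was 0.40 above Ctrl (interval 0.04 to 0.77, unadjusted p = 0.0342, adjusted p = 0.136), where Ep1 replicate 1 was far above the other Ep1 libraries, and 0.23 above Ctrl at the lowest, on leaving out 1 library.

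Vegfa, the growth factor that drives angiogenesis and vessel leakage, was at 46.2, 47.6 and 46.1 FPKM in Ctrl, at 54.2, 42.3 and 42.5 FPKM in Ep1 and at 96.4, 59.9 and 63.2 FPKM in Ep2. All Ep2 libraries were above all others, with Ep2 replicate 1 the highest by far, and the Ep1 libraries lay on both sides of the Ctrl range. The mean rose from 46.7 ± 0.855 (SD, n = 3) in Ctrl to 73.2 ± 20.2 FPKM (n = 3) in Ep2, a log2 difference of 0.61 (SE 0.18, interval 0.20 to 1.01, adjusted p = 0.0196), which was 0.39 (adjusted p = 0.0105) without Ep2 replicate 1 and missed the threshold without Ctrl replicate 1 (0.60, adjusted p = 0.0523). Ep2 exceeded Ep1 by 0.62 (adjusted p = 0.0211), a call lost without Ep1 replicate 2 (adjusted p = 0.0705) or Ep1 replicate 3 (0.0699). Ep1 was -0.02 from Ctrl (interval -0.42 to 0.39, adjusted p = 0.954).

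Ankrd37, a small ankyrin-repeat gene known as a direct HIF-1 target, was at 2.16, 2.26 and 2.52 FPKM in Ctrl, at 2.15, 1.12 and 1.89 FPKM in Ep1 and at 8.52, 2.15 and 2.07 FPKM in Ep2. A single library, Ep2 replicate 1, was high, and the other Ep2 libraries lay at the lower edge of the Ctrl range or just under it. It rested on 250 fragments in that library (exact 95% Poisson interval 220 to 283) against 62 (47.5 to 79.5) and 53 (39.7 to 69.3) in the other Ep2 libraries, intervals that cover counting error only. The difference of Ep2 from Ctrl was 0.45 (interval -0.50 to 1.40, adjusted p = 0.387) and turned to -0.09 (adjusted p = 0.646) without Ep2 replicate 1. Ep1 was 0.30 below Ctrl in the mean, with all its libraries below all Ctrl libraries (-0.30, interval -1.25 to 0.65, adjusted p = 0.665). That interval comes from the fit of all 9 libraries, so the spread between the Ep2 libraries enters it. The adjusted p was 0.181 with only the groups compared and 0.145 without Ep2 replicate 1. Adm, which encodes adrenomedullin, a vasodilator peptide that endothelium commonly makes under low oxygen, had 1, 0 and 0 fragments in Ctrl, 0, 0 and 1 in Ep1 and 1, 1 and 2 in Ep2. Every library was under the 3 fragments that a count of 0 allows, which correspond to 0.0947 to 0.112 FPKM, so a difference was not detectable at this depth and no fold is given.

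**Figure D2:**
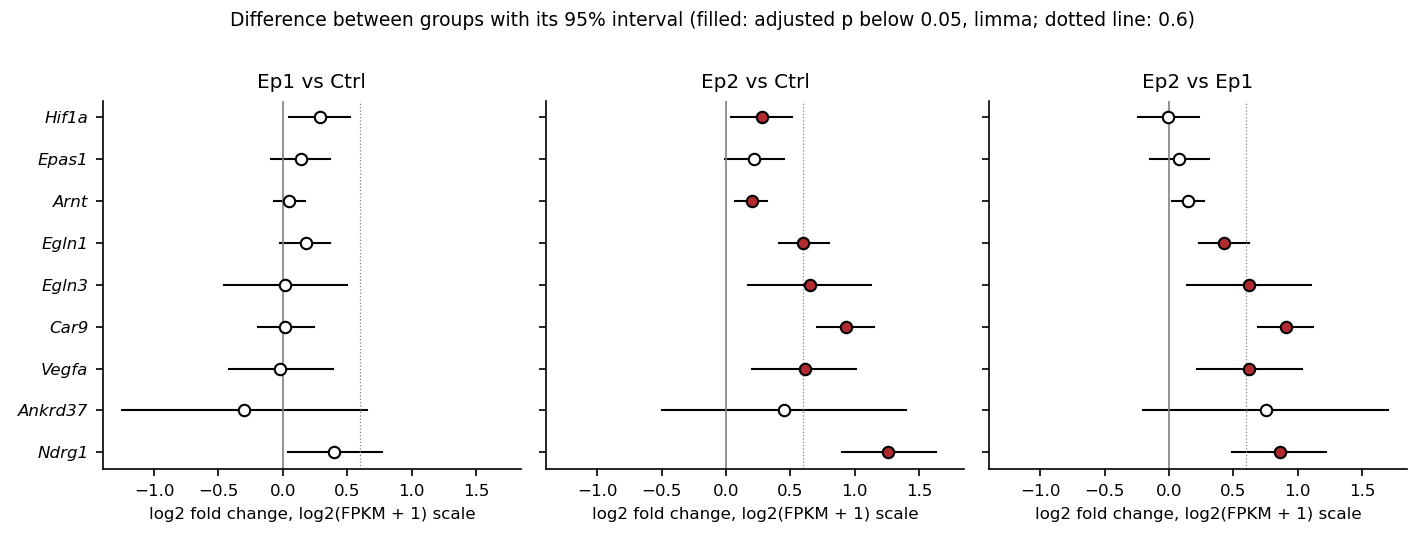
Difference in log2(FPKM + 1) between groups (horizontal axis) for the 9 tested genes, in 1 panel for each comparison, with 95% intervals, filled points for an adjusted p below 0.05 and a dotted line at 0.6. No point is filled in Ep1 against Ctrl, and Ndrg1 (1.26) and Car9 (0.93) lie farthest to the right in Ep2 against Ctrl.

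Over the group, the median difference of the 9 tested genes was 0.05 in Ep1 against Ctrl, 0.60 in Ep2 against Ctrl and 0.62 in Ep2 against Ep1, beside medians of -0.01, -0.03 and -0.01 over all tested genes. The comparisons of Ep1 and Ep2 with Ctrl share the Ctrl libraries. All groups also share 1 estimate of each gene's spread. The spread between the Ep2 libraries thus enters the Ep1 intervals, among them those of Hif1a, Egln3, Vegfa and Ankrd37. All 9 genes were at 1 FPKM or more in all 9 libraries, so none was tested only because it is high in 1 group. In Ep1 against Ctrl 0 of 9 passed with limma, where 6.32% of all tested genes rose and 4.97% fell, and limma's voom on recovered fragments also called 0. All Ep1 libraries were above all Ctrl libraries for 2 genes (Hif1a and Ndrg1, against 20.8% of all tested genes) and below them for 1 (Ankrd37, against 20.5%). In bulk RNA, a change in how many cells express a gene and a change in the RNA per cell cannot be told apart.

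In Ep2 against Ctrl, 5 of the 7 genes that rose (Car9, Egln1, Egln3, Ndrg1 and Vegfa) also passed a log2 difference of 0.6, which 3.3% of all tested genes did upwards, and for 6 of 9 all Ep2 libraries were above all Ctrl libraries, against 27% of all tested genes. Egln1 and Vegfa sat at the edge of that threshold, and only Car9 and Ndrg1 were left past it without Ctrl replicate 1, Ctrl replicate 3 or Ep2 replicate 1. The count of 7 was 4 without Ctrl replicate 1 (Arnt, Car9, Egln1 and Ndrg1), the lowest, and 8 without Ep2 replicate 1, the highest. In Ep2 against Ep1, 5 of 9 were higher and none was lower (18.8% and 25.2% of all tested genes were), 4 of them past 0.6 (1.94% of all), and for those 5 no library overlapped (24.1% of all). This count was 3 (Car9, Egln1 and Ndrg1) without Ep1 replicate 2 or Ep1 replicate 3. Both hydroxylases and 3 of the targets (Car9, Vegfa and Ndrg1) thus differed between the light doses in the fit of all libraries. The calls of Egln3 and Vegfa were not kept on leaving out each library. For Hif1a, Epas1, Arnt and Ankrd37 no difference between the doses was detected.

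Ep2 replicate 1 stood out in both directions. Relative to the mean of the other Ep2 libraries it was 4.03 times as high for Ankrd37, 1.78 times for Egln3, 1.57 times for Vegfa, 1.32 times for Ndrg1 and 1.21 times for Egln1, near them for Arnt (1.05) and Car9 (0.948), and lower for Epas1 (0.823) and Hif1a (0.743). It was the highest of the 3 Ep2 libraries for 5 of the 9 tested HIF genes (55.6%), for 17 of 22 other tested HIF targets (77.3%), for 15 of 19 tested glycolytic targets (78.9%) and for 2 of 10 regulators of the pathway (20%), against 38.8% of all tested genes. Within Ep1, replicate 1 was the highest library for 9 of 9 HIF genes, 18 of 22 other targets, 17 of 19 glycolytic genes and 4 of 10 regulators, against 35.6% of all tested genes. Hif1a and Epas1 were thus highest in Ep1 replicate 1 but lowest in Ep2 replicate 1 within their groups. These counts describe libraries, genes are not independent of each other, and what sets the replicates 1 apart was not tested.

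**Figure D3:**
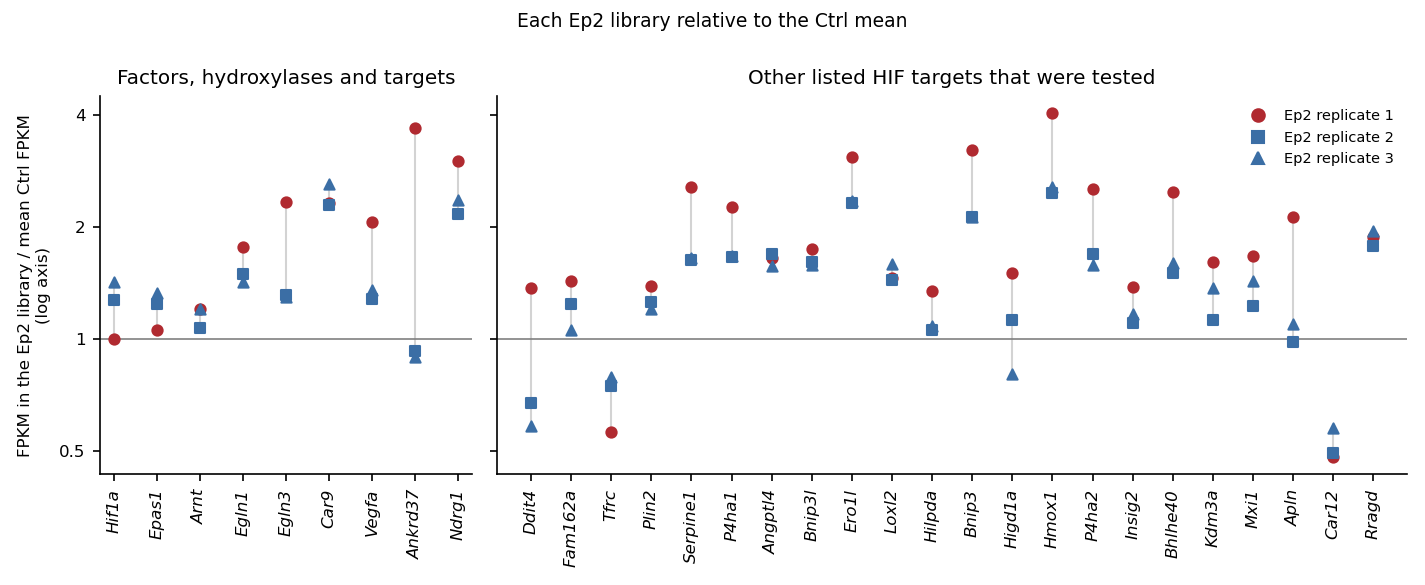
FPKM of each Ep2 library divided by the mean Ctrl FPKM (vertical log axis, 1 marking the Ctrl mean) for the 9 tested HIF genes and for 22 other HIF targets, the latter ordered by their level in Ctrl, with Ep2 replicate 1 in red and the others in blue. Ep2 replicate 1 is the highest Ep2 library for 17 of the 22 other targets and for 5 of the 9 genes on the left, and the lowest for Hif1a and Epas1, where 38.8% of all tested genes are highest in that library.

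Genes around the pathway were counted from lists of known members, which were chosen with earlier results of these data known. A count above the share of all tested genes is therefore a description only. Of 12 regulators of HIF, 10 were tested, and in Ep2 5 rose and 1 fell against Ctrl (3 rose without Ctrl replicate 1), with a median of 0.17 and with 23.9% of all tested genes higher and 29.3% lower. The genes that rose were the coactivators Crebbp (0.52, adjusted p = 0.000304) and Ep300 (0.44, adjusted p = 0.000468), which HIF recruits at its targets, and Vhl, Hif1an and Eloc, named here after their values were seen, which act to restrain the factor. Vhl was 0.30 above Ctrl (adjusted p = 0.0226). Egln2, which encodes PHD1, the hydroxylase that HIF does not induce, fell by 0.31 (adjusted p = 0.00217), opposite to Egln1 and Egln3. In Ep1 1 of the 10 rose, beside 6.32% of all tested genes. It was Crebbp (0.39, adjusted p = 0.0142), a call lost without Ctrl replicate 2 (0.0637) or Ep1 replicate 3 (0.0615). The count was 3 higher and 1 lower without Ep2 replicate 1, 2 higher without Ep1 replicate 2 or Ep2 replicate 3, and 1 higher and 1 lower without Ctrl replicate 3. It was 2 higher and 1 lower with a filter at 5 FPKM, with only the groups compared and with voom. Hif3a and Arnt2, the alternative subunits, were at 0.0161 and 0.282 FPKM at most and were not tested.

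Of 26 other known HIF targets, 22 were tested, and 16 rose and 2 fell in Ep2 against Ctrl, with a median of 0.51 and 9 of the rises past 0.6, beside 23.9% of all tested genes higher, 29.3% lower and 3.3% higher past 0.6. Without Ep2 replicate 1 the counts were 14 and 3. The largest rises were those of Hmox1 and Ero1l. Hmox1 encodes heme oxygenase 1, which degrades heme and is also a standard target of the oxidative stress factor NRF2. It was at 21.6, 21.8 and 20.4 FPKM in Ctrl, at 59, 51.9 and 49.4 FPKM in Ep1 and at 86, 52.4 and 54.7 FPKM in Ep2. It rose at the lower light dose (1.29, adjusted p = 0.00823) and at the higher (1.52, adjusted p = 0.00018), and the doses were not shown to differ (0.23, interval -0.16 to 0.63, adjusted p = 0.309). In Ep1 Hmox1 was the 1 gene of this list to pass, beside 6.32% of all tested genes higher and 4.97% lower. Without Ep2 replicate 1 the list had 3 higher and 2 lower.

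Ero1l, an oxidase of disulfide formation in the endoplasmic reticulum, was at 33.9, 32.5 and 39.5 FPKM in Ctrl, at 52.1, 36.9 and 39.7 FPKM in Ep1 and at 109, 81.7 and 82.9 FPKM in Ep2. Its Ep2 libraries were clear of all others, and it rose by 1.33 (adjusted p = 0.000183). The 2 genes that fell were Car12, the other membrane carbonic anhydrase of tumor cells, at 4.7, 4.66 and 4.03 FPKM in Ctrl and 2.15, 2.21 and 2.57 FPKM in Ep2 (-0.72, adjusted p = 6.78e-05), and Tfrc, the transferrin receptor that takes up iron (-0.52, adjusted p = 0.00342). Car9 and Car12, whose products both buffer acid at the cell surface, thus moved in opposite directions at the higher light dose.

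Of 20 HIF targets in or around glycolysis, called glycolytic here, 19 were tested, and 10 rose and 1 fell in Ep2 against Ctrl, with a median of 0.24. Against Ep1 12 were higher. Of all tested genes, 23.9% were higher and 29.3% lower than in Ctrl, and 18.8% were higher than in Ep1. The list also holds genes outside glycolysis itself, such as Slc16a3, Pdk1 and Ak4, and Pdk1 (0.49) and Ak4 (0.40) were among those that rose against Ctrl. Leaving out 1 library, 7 to 13 rose against Ctrl and 8 to 13 were higher than in Ep1. The list includes genes with many near-identical copies in the genome, such as Gapdh, whose listed level (5.51 to 54.3 FPKM) varied widely within groups and is uncertain. Aldoc, the brain form of aldolase, rose most, at 31.3, 35.7 and 34.2 FPKM in Ctrl, 38, 28.4 and 29.2 FPKM in Ep1 and 72.9, 69.7 and 64.9 FPKM in Ep2 (1.01, adjusted p = 6.25e-05). Like Car9, it was even across the Ep2 libraries. Slc2a1, the glucose transporter of the blood-brain barrier, rose by 0.50 (adjusted p = 0.00993) from a mean of 93.2 to 134 FPKM, and Eno1, an abundant enolase, fell by 0.23 (adjusted p = 0.000429). In Ep1 2 genes fell, beside 4.97% of all tested genes. The 2 were Pfkfb4 (-0.26, adjusted p = 0.0313) and Eno1 (-0.14, adjusted p = 0.0326). Both missed the threshold without Ctrl replicate 1 (0.091 and 0.0847), Ctrl replicate 2 (0.125 and 0.136) or any 1 Ep1 library (0.0685 to 0.0998 and 0.0721 to 0.124), and Eno1 also without Ctrl replicate 3 (0.059) or Ep2 replicate 2 (0.0535).

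Among 9 other VEGF ligands and receptors, 6 were tested, and 2 rose and 1 fell in Ep2 against Ctrl, beside 23.9% of all tested genes higher and 29.3% lower. The receptor Flt1 rose in Ep2 from 6.9 ± 0.206 (SD, n = 3) to 10.9 ± 0.732 FPKM (n = 3), a difference of 0.59 (adjusted p = 9.67e-05), and the ligand Vegfd rose by 0.31 (adjusted p = 0.00289). The ligand Vegfb, which HIF does not induce, fell by 0.30 (adjusted p = 0.0151), a call lost without Ctrl replicate 1 (0.0591) or Ctrl replicate 2 (0.0603). Kdr, the main signalling receptor for VEGF-A in endothelium, was at 0.0594 FPKM at most. Of 6 genes for adrenomedullin receptors and their ligand Adm2, 2 were tested, and Ramp3 was 0.25 above Ctrl in Ep2 (adjusted p = 0.0557). The receptor gene Calcrl was at a mean of 0.753 FPKM in Ctrl and 1.25 FPKM in Ep2, and since it passed the filter through its Ep2 libraries no test is given, while Ramp2, its usual partner in endothelium, was at 0.082 FPKM at most. All 3 other NDRG genes were tested, and 2 rose in Ep2 against Ctrl, beside 23.9% of all tested genes. These were Ndrg4 (0.43, adjusted p = 0.00241) and Ndrg3 (0.28, adjusted p = 0.00326). Ndrg2 was at a difference of 0.02 (adjusted p = 0.804), and all 3 differences were smaller than that of Ndrg1.

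**Figure D4:**
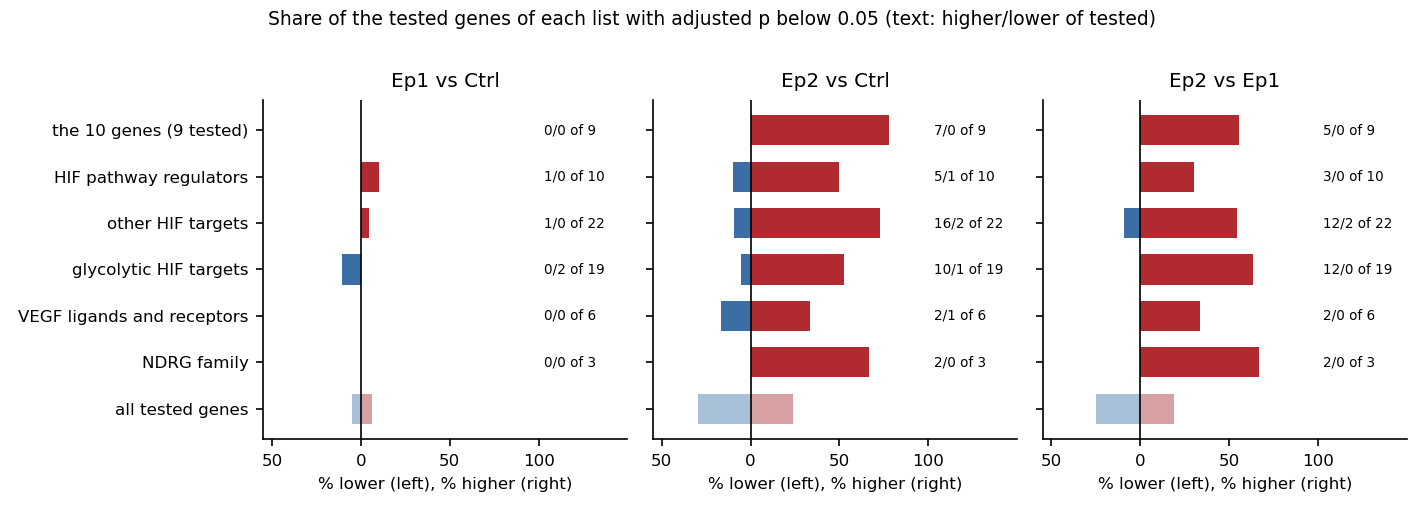
Share of the tested genes of each list shown (all but the adrenomedullin receptor genes) that were higher (red, to the right) or lower (blue, to the left) with an adjusted p below 0.05, in percent, in the 3 comparisons, with the same share over all 11727 tested genes in pale bars at the bottom. In Ep2 against Ctrl 16 of 22 other HIF targets and 10 of 19 glycolytic genes were higher, beside 23.9% of all tested genes. In Ep1 against Ctrl no list had more than 1 gene higher, beside 6.32% of all tested genes.

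The genes whose levels ran most like those of Hif1a over the 9 libraries, by Pearson's r of log2(FPKM + 1), were Son (r = 0.990), Tcf4 (0.982) and Chka (0.982). Son was at 32.7, 32.4 and 32.7 FPKM in Ctrl, at 37.5, 36.1 and 36.9 FPKM in Ep1 and at 32, 36.9 and 39.9 FPKM in Ep2. Like Hif1a it was higher in Ep1 and low in Ep2 replicate 1. Among the 3 genes most like Vegfa were Saraf (0.981) and 4930581F22Rik (0.979), and Saraf, at 36.2, 37.1 and 37.5 FPKM in Ctrl, 38.9, 37.1 and 36.3 FPKM in Ep1 and 56.1, 43.5 and 45.5 FPKM in Ep2, had the same peak in Ep2 replicate 1. These are among the closest of 11727 genes over 9 libraries that share their groups, and they are given as a description. Some marker genes moved with the comparison as well. The summed level of the 12 endothelial markers was 9.45 to 9.67 FPKM in Ctrl, 9.43 to 10.8 FPKM in Ep1 and 13 to 14.1 FPKM in Ep2, a sum that is mostly Flt1, while Eng, the other tested marker, was at -0.13 against Ctrl in Ep2 (adjusted p = 0.274). The sum of 6 epithelial markers was 1029 to 1081 FPKM in Ctrl, 937 to 1041 FPKM in Ep1 and 1155 to 1372 FPKM in Ep2, and of the 4 tested Krt18 (0.37, adjusted p = 0.000887) and Krt19 (0.70, adjusted p = 0.00127) were higher in Ep2 than in Ctrl, with Krt8 at 0.04 (adjusted p = 0.53). Epcam, at 0.763 to 0.898 FPKM in Ctrl and 1.59 to 2.03 FPKM in Ep2, also passed the filter through its Ep2 libraries, so no test is given for it. Their part in the results for the HIF genes was not tested.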

How the data were processed

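The authors sequenced RNA as 150 bp paired-end reads and deposited 1 FPKM value for each of 54532 genes in each of 9 libraries, already normalised for gene length and library size. The 9 single-library tables equal the joint table (largest difference 0), and 0 columns of other samples were present. The submitters' processing notes name Bowtie 0.12.2 and mm8, and the paper's methods name GRCm39, but the listed coordinates overlap the GRCm38 position for 99.9% of 37614 genes compared (GRCm39: 10.9% of 50414), so positions are given as GRCm38. The counting tool is not given in the sources used here. The product of FPKM and length fell on whole steps in each library (tolerance 0.05) for 100% of values, and counting those steps gave the fragments and the depth of each library (16240688 to 19509225). The total the authors normalised by was 0.995 to 1.026 times this one.

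Groups followed the library titles. Genes with at least 1 FPKM in at least 3 libraries (11727) were tested as log2(FPKM + 1) with limma 3.58.1 in R 4.3.3 (all 9 libraries in 1 fit, trend and robust), and p-values were adjusted by Benjamini-Hochberg within each comparison, with a threshold of 0.05. A fold change on this scale understates the change of low genes. Alternatives were a pseudocount of 0.1, no filter, a filter at 5 FPKM, median centring, a replicate block, only the groups compared, limma's voom on recovered fragments (at least 10 in at least 3 libraries), and leaving out each library. The fit was tested on data simulated around the Ctrl means with the same spread in every group, where 178 of 198 changed genes and 10 unchanged genes were called. This simulation does not cover the wider spread between the Ep2 libraries. Named genes were the 10 HIF genes, of each list (regulators, other targets, glycolytic targets, VEGF ligands and receptors, adrenomedullin receptor parts, NDRG family) up to 2 largest rises and 2 largest falls in Ep2 and up to 1 of each in Ep1 among those that passed, the 3 genes most like Hif1a and the 3 most like Vegfa (1 of which is not reported here), and markers. Pericyte markers had 1 of 6 tested, fibroblast markers 1 of 5, and astrocyte and leukocyte markers 0 of 5 each. The genes and lists were chosen with earlier results of these data known. Promoters came from RefSeq for GRCm38.p6.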

Additional observations from a re-analysis of the deposited data

Results flagged for a closer look

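For 5 of the 9 tested HIF genes the effect against Ctrl differed between the light doses, by limma's test of Ep2 against Ep1. The effect at the higher dose exceeded that at the lower by 0.91 on the log2 scale for Car9, by 0.86 for Ndrg1, by 0.62 for Egln3, by 0.62 for Vegfa and by 0.43 for Egln1, with adjusted p-values of 0.0001, 0.00307, 0.0418, 0.0211 and 0.00334. No Ep2 library overlapped an Ep1 library for these genes. Both effects are measured against the same Ctrl libraries. The calls of Car9, Ndrg1 and Egln1 were kept without any 1 library, and those of Egln3 and Vegfa were not.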

How the results depend on the processing

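Of the 27 differences of single genes (9 genes in 3 comparisons), 27 kept their direction and their side of the threshold with a pseudocount of 0.1, 26 with a replicate block, 25 with median centring, 24 without a filter, 23 with only the groups compared and 22 with voom. The replicate block moved Hif1a in Ep2 against Ctrl to an adjusted p of 0.0566. In their deviations from the group means, same-numbered libraries correlated at -0.056 to 0.074 and matched best in 4 of 18 cases. These values show no pairing by replicate number but cannot exclude one. In Ep2 against Ctrl, Hif1a also missed the threshold without a filter (0.117) and with only the groups compared (0.0908), Egln3 with these (0.0557 and 0.0596) and with voom (0.058), and Epas1 passed with voom (0.0389). In Ep2 against Ep1, Egln3 missed it in the same 3 fits (0.0766, 0.0735 and 0.0702), Arnt passed at 5 FPKM (0.0479), with median centring (0.0155) and with voom (0.0137), and Hif1a turned from -0.01 to 0.05 with median centring and 0.02 with voom. In Ep1 against Ctrl, 1 HIF gene passed with only the groups compared (Hif1a, 0.00767), and the count of listed pathway genes moved from 4 to 2 without a filter and to 10 with only the groups compared.

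Leaving out 1 library at a time, the HIF genes that passed numbered 0 to 1 in Ep1 against Ctrl, 4 to 8 in Ep2 against Ctrl and 3 to 6 in Ep2 against Ep1, and those also past 0.6 numbered 2 to 5 and 2 to 4 in the last 2 comparisons. Their median difference ranged from 0.39 (without Ep2 replicate 1) to 0.71 and from 0.34 (without Ep2 replicate 1) to 0.75 (without Ep2 replicate 2), and the listed pathway genes that passed ranged from 1 to 11, 35 to 46 and 25 to 37. In Ep1 against Ctrl, Car9 ranged from -0.08 to 0.09, Egln3 from -0.06 to 0.08 and Vegfa from -0.13 to 0.04, Ankrd37 in Ep2 against Ctrl from -0.09 to 0.73, and Hif1a in Ep2 against Ep1 from -0.11 to 0.13. Over all tested genes, Ep1 against Ctrl gave 741 higher and 583 lower, 242 and 154 without a filter, 1153 and 1009 with only the groups compared, 927 and 1068 with voom, 115 and 77 without Ctrl replicate 2 (the fewest on leaving out 1 library) and 1185 and 1007 without Ep2 replicate 1 (the most), so its share of calls is uncertain. In Ep2 against Ctrl 2800 higher and 3436 lower became 3311 and 2971 with median centring and 3565 and 3484 with voom. In Ep2 against Ep1 the higher share of all calls was 42.8%, 55.5% with median centring and 52.8% with voom. Causes of these changes were not tested.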
